A study of Mus musculus with 2 samples.

Results

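Hedgehog and parathyroid hormone-related protein (PTHrP) signalling was examined through 9 genes in cultured mouse chondrocytes, the resident cells of cartilage. These were the hedgehog ligand genes Ihh, Shh and Dhh, the hedgehog receptor and target genes Ptch1, Smo, Gli1 and Hhip, the PTHrP gene Pthlh and its receptor gene Pth1r. They were chosen by symbol from a table of 21983 genes, which held all 9. Primary wild-type chondrocytes were given either recombinant mouse Sparcl1, a secreted matricellular protein, at 50 ng/ml or phosphate-buffered saline (PBS), each for 3 days in medium with serum. There was 1 library per condition, so no difference below has a replicate check and no p-value is given. The labels used here do not give the anatomical site, the age of the animals or the number pooled.

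In the growth plate, the cartilage that lengthens bones, prehypertrophic chondrocytes secrete Indian hedgehog, the product of Ihh. Hedgehog ligands bind the receptor Patched 1, which otherwise holds the membrane protein Smoothened inactive, and active Smoothened turns on Gli transcription factors. Indian hedgehog also raises PTHrP in periarticular cells, and PTHrP acts through its receptor, a Gs-coupled receptor of proliferating and prehypertrophic cells, to delay hypertrophy. The loop is known for setting the length of the proliferating column. Gli1, Ptch1 and Hhip are themselves classic hedgehog targets, and Ptch1 and Hhip products restrain the pathway by binding the ligands.

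The 2 libraries held 26871933 gene counts (Sparcl1) and 29858851 (PBS). Levels are given as CPM, the counts of a gene per 1000000 library counts, at library sizes scaled by the trimmed mean of M-values, and between genes as CPM per kilobase of exon. Ratios are Sparcl1 over PBS on the log2 scale, with a 95% Clopper-Pearson interval that covers counting error only. A gene was called higher or lower if its counts summed to 20 or more, its log2 ratio was 1 or more away from 0, and its interval left out 0. All 15 chondrocyte markers had counts in both libraries, and they summed to 12206 CPM with Sparcl1 and 13946 CPM with PBS. Col2a1 alone held 7332 CPM of that with Sparcl1 and 8629 CPM with PBS. Macrophage markers were also all present, 12 of 12, with sums of 2655 CPM with Sparcl1 and 2343 CPM with PBS. Presence alone therefore does not test the cell type label. In such bulk RNA, fewer cells of a type and less RNA per cell cannot be told apart.

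The receptor genes Pth1r and Ptch1 and the transducer gene Smo were the most abundant, whereas Ihh, Shh and Pthlh were at or under 3 counts in both libraries. Dhh and Gli1 had few reads and Hhip lay between. Of the 9 genes, 6 had at least 20 summed counts and 1, Gli1, was called higher in the Sparcl1 library. None was called lower. Over all 13317 genes with at least 20 summed counts, the same rule called 0.954% higher and 0.946% lower, 1.90% in all. The share was larger among genes with few reads: of the 1407 genes with 20 to 99 summed counts, the range that holds Gli1 and Dhh, 7.60% were called higher and 6.25% lower. The median log2 ratio of the 6 genes was -0.17, beside 0.00 for all genes tested, and 4 of the 6 ratios lay below 0.

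The starts of the 2 feedback inhibitor genes are shown because both genes are classic hedgehog targets, yet their ratios lay on opposite sides of 0, although the Hhip interval includes 0. The sequences are the 250 bases before the RefSeq start (GRCm38.p6), read 5′ to 3′ on the minus strand, and capitals mark a match to the cAMP response element TGACGTCA. They were matched by symbol, as were those of 7 of the 9 genes. Gli1 and Shh were not matched.
Hhip (chr8:80058009-80058258): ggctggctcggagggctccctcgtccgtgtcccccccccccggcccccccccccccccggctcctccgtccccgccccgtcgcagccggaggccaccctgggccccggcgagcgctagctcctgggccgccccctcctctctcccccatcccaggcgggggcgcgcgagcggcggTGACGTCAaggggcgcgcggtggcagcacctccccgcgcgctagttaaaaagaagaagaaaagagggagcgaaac
Ptch1 (chr13:63565736-63565985): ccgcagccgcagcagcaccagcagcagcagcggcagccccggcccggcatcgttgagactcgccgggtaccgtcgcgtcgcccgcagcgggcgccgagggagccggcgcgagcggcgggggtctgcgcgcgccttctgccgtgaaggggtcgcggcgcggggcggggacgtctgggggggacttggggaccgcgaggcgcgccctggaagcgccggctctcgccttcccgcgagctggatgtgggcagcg
The Hhip window held TGACGTCA, the palindromic site of CREB-type factors, with its first base 75 bases before the start. That site is in 1.55% of 32851 mouse promoter windows of the same length. The Gli consensus GACCACCCA, sought on both strands, was in neither window, nor in any of the 9 windows that the 7 genes have, and it is in 0.225% of all windows. Neither printed window overlaps an annotated exon, and the Ptch1 window lies inside the gene's annotated span because longer transcripts start farther upstream. No binding or methylation was measured in these libraries, so a match describes the letters alone.

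Of the hedgehog ligands, Ihh had 3 counts in the Sparcl1 library and 1 in the PBS library. Shh, the ligand of limb and neural tube patterning, had 0 counts with Sparcl1 and 2 with PBS. Both libraries were thus at or under the limit of 3 counts for both genes, and no ratio is given. In CPM, Ihh stood at 0.110 with Sparcl1 (95% Poisson interval 0.0228 to 0.322) and 0.0339 with PBS (0.000858 to 0.189). By the 3-count limit, the 0 counts of Shh allow up to 0.110 CPM in the Sparcl1 library, and the 95% Poisson interval reaches 0.136. Ihh lies on chromosome 1 at 74945315 to 74951672 (GRCm38) and Shh on chromosome 5 at 28456815 to 28467256.

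Dhh, which encodes desert hedgehog, the ligand known from Schwann cells and the testis, supplied most of the few ligand reads. It had 22 counts in the Sparcl1 library and 33 in the PBS library. That was 88% of the 25 hedgehog ligand counts with Sparcl1 and 91.7% of the 36 with PBS. The Dhh level was 0.809 CPM with Sparcl1 and 1.12 CPM with PBS, a log2 ratio of -0.47 with an interval of -1.32 to 0.35 that includes 0, so no difference was detectable at this depth. Schwann and neural markers had counts in 6 of 7 genes with Sparcl1 and in 7 of 7 with PBS, and summed to 76.1 CPM with Sparcl1 and 77.8 CPM with PBS. Among them Sox10, a neural crest and Schwann transcription factor, had 97 counts with Sparcl1 and 72 with PBS (log2 ratio 0.55, 0.09 to 1.01). Their part in the Dhh counts was not tested. Dhh (chromosome 15, 98891152 to 98898540) shares 546 exonic bases with its same-strand neighbour Rhebl1 and 1107 with the antisense gene Gm49442, so its reads are uncertain there. No entry named Gm49442 is among the gene counts. Rhebl1 had 113 counts with Sparcl1 and 114 with PBS.

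Pthlh, which encodes PTHrP itself, had 0 counts in the Sparcl1 library and 2 in the PBS library. Its level was at most 0.110 CPM with Sparcl1 by the 3-count limit, and 0.0678 CPM with PBS (0.00821 to 0.245). The ligand genes that give the growth plate loop its name, Ihh and Pthlh, were therefore each at or under 3 counts in both libraries, and a difference in either could not be seen at this depth. Pthlh lies on chromosome 6 at 147252101 to 147264183, and no other annotated exon overlaps its exons or those of Ihh. Of the related ligands, Pth, the parathyroid hormone gene, and Pth2 had 0 counts in both libraries.

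**Figure D1:**
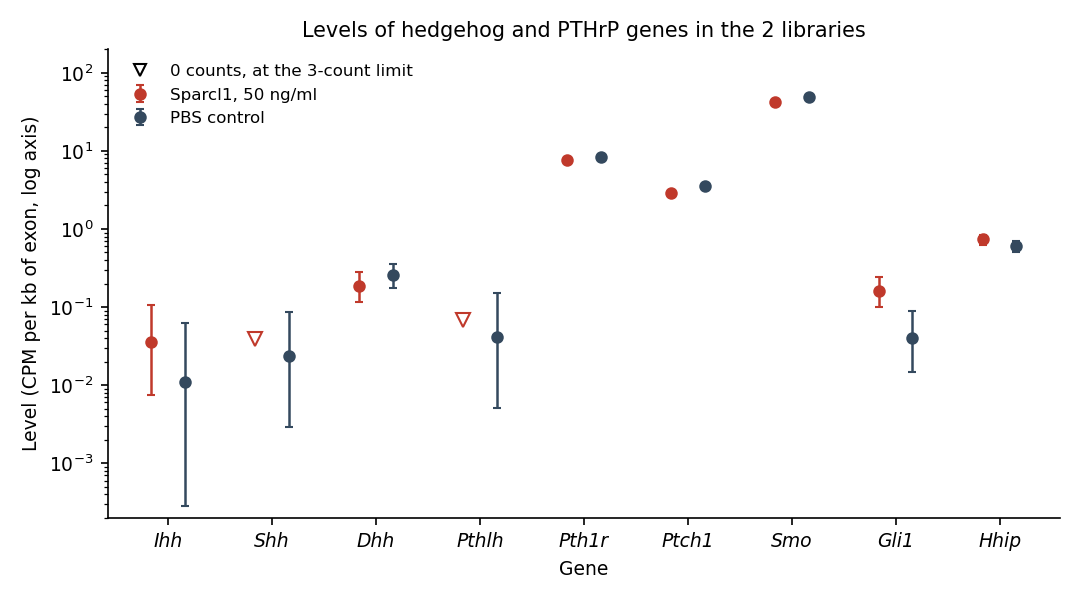
Levels of the 9 genes in CPM per kilobase of exon on a log axis, with the Sparcl1 library (red) left of the PBS library (dark). Bars are 95% Poisson intervals (counting error only) and open triangles stand at the 3-count limit for 0 counts; Smo is highest at 42.5 with Sparcl1 and 48.6 with PBS, and Ihh, Shh and Pthlh are lowest.

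Pth1r, the receptor gene for PTHrP and parathyroid hormone, was expressed in both libraries. It had 607 counts with Sparcl1 and 727 with PBS, or 22.3 CPM with Sparcl1 and 24.6 CPM with PBS. The log2 ratio was -0.14 (-0.30 to 0.01), an interval that includes 0 and bounds any lower level to a fold of no less than 0.812 by counting error. Per kilobase, Pth1r stood at 7.63 with Sparcl1 and 8.43 with PBS, above 66.8% of the 16019 detected genes that have a length. Its receptor relative Pth2r had 6 counts with Sparcl1 and 7 with PBS. Osteoblasts also express Pth1r, and osteoblast markers were present in 8 of 8 genes, with sums of 6546 CPM with Sparcl1 and 8563 CPM with PBS. The collagen gene Col1a1 alone held 6309 CPM of that with Sparcl1 and 8206 CPM with PBS. Bglap had 10 counts with Sparcl1 and 19 with PBS, and Phex 3 with Sparcl1 and 13 with PBS. Omd had 2642 counts with Sparcl1 and 4411 with PBS. The part of osteoblasts in the Pth1r counts was not tested. Pth1r lies on chromosome 9 at 110722085 to 110747145, and it shares 95 exonic bases with the opposite-strand gene Myl3, which had 3 counts with Sparcl1 and 2 with PBS.

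Smo, which encodes the Smoothened transducer, was the most abundant of the 9 genes. It had 6491 counts with Sparcl1 and 8063 with PBS, or 239 CPM with Sparcl1 and 273 CPM with PBS. The log2 ratio was -0.20 (-0.24 to -0.15), so the Sparcl1 library was lower beyond counting error, but far short of the size set for a call. Per kilobase Smo stood above 94.5% of detected genes. Smo (chromosome 6, 29735503 to 29761365) shares no exonic base with another annotated gene.

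Ptch1, the hedgehog receptor gene and a hedgehog target, had 1128 counts with Sparcl1 and 1472 with PBS. Its level was 41.5 CPM with Sparcl1 and 49.9 CPM with PBS, a log2 ratio of -0.27 (-0.38 to -0.15). This too excluded 0 by counting error and was not a call. The 7114 genes with at least 1000 and under 10000 summed counts had 95% of their log2 ratios between -0.34 and 0.34, and the Ptch1 and Pth1r ratios both lay inside it. For the 954 genes with 10000 or more, the matching range was -0.34 to 0.32, and Smo lay inside it. Per kilobase, Smo was 14.5-fold above Ptch1 with Sparcl1 and 13.8-fold above it with PBS. Ptch1 lies on chromosome 13 at 63508328 to 63573598.

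Hhip encodes hedgehog-interacting protein, a membrane decoy that binds hedgehog ligands. It had 181 counts with Sparcl1 and 160 with PBS, or 6.65 CPM with Sparcl1 and 5.42 CPM with PBS. The log2 ratio was 0.30 (-0.02 to 0.61), so a difference was not shown at this depth, and 95% of the 3842 genes with at least 100 and under 1000 summed counts had ratios between -0.69 and 0.66. The Hhip and Ptch1 intervals do not overlap. Ptch1 exceeded Hhip per kilobase by 3.99-fold with Sparcl1 and by 5.89-fold with PBS. Hhip lies on chromosome 8 at 79965851 to 80058006.

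Gli1, the transcriptional activator whose own transcript is the most used readout of hedgehog signalling, was the called gene. It had 22 counts in the Sparcl1 library and 6 in the PBS library. In CPM this was 0.809 with Sparcl1 (0.507 to 1.22) and 0.203 with PBS (0.0746 to 0.443), and these 2 Poisson intervals do not overlap. The log2 ratio was 1.99, with an interval of 0.65 to 3.58, which is a 3.98-fold ratio poorly fixed by so few reads. It lay above 99.8% of all genes tested and outside the central 95% of genes with 20 to 99 summed counts (-1.56 to 1.64). With a minimum of 100 summed counts, Gli1 is not tested and none of the 9 genes is called. Its level stayed low in both libraries: Ptch1 exceeded Gli1 per kilobase by 18.1-fold with Sparcl1 and by 86.4-fold with PBS.

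Part of the Gli1 exons is shared with other genes on the opposite strand, and whether the counting used strand is not given in the sources used here. Gli1 (chromosome 10, 127329882 to 127341974) shares 62 exonic bases with Arhgap9, a gene known from blood cells, and 265 with the antisense gene Gm47200. Arhgap9 had 369 counts with Sparcl1 and 315 with PBS, a log2 ratio of 0.35 (0.12 to 0.57). The gene counts hold no entry named Gm47200. The part of these genes in the Gli1 counts was not tested.

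**Figure D2:**
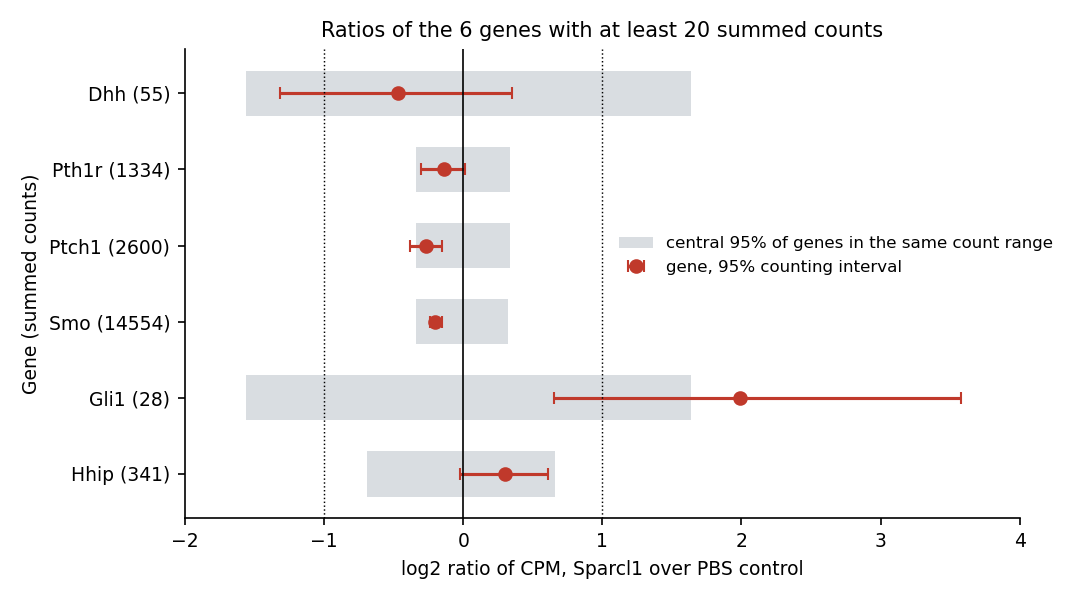
Log2 ratio of CPM, Sparcl1 over PBS, for the 6 genes with at least 20 summed counts (points, with 95% counting intervals), over the central 95% of all genes in the same range of summed counts (grey bars). Dotted lines mark a log2 ratio of 1 in size; Gli1 at 1.99 lies past it and past its grey bar, and the other 5 ratios lie between -0.47 and 0.30.

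**Figure D3:**
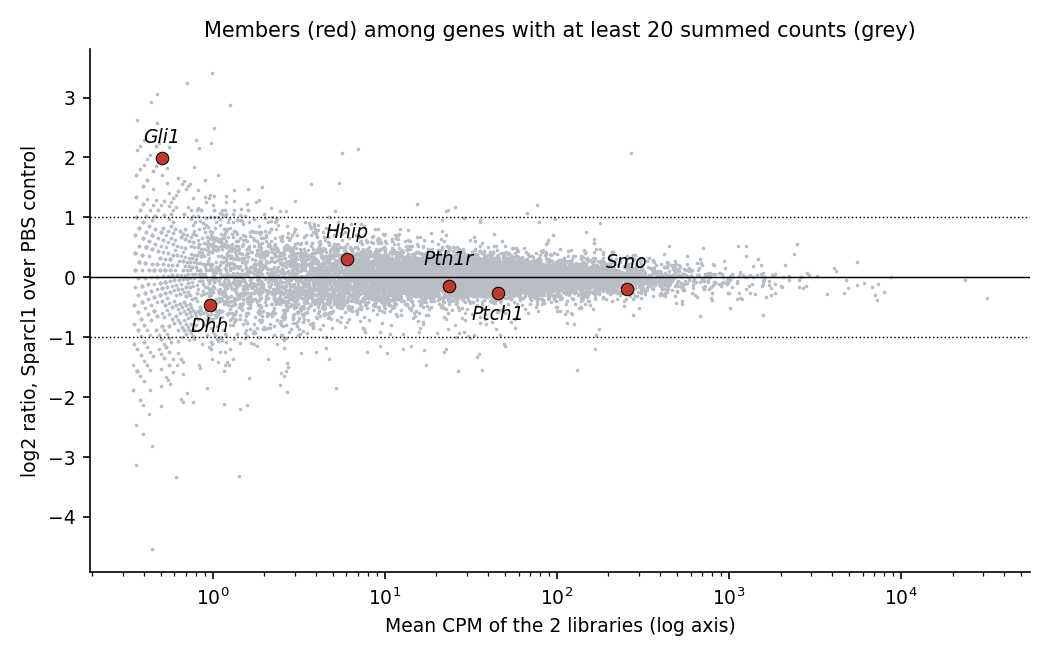
Log2 ratio, Sparcl1 over PBS, against mean CPM of the 2 libraries (log axis) for genes with at least 20 summed counts. Red points are the 6 hedgehog and PTHrP genes; Gli1 lies at the left, where few reads spread the ratios widely, and Smo at the right, where the ratios are narrow.

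The other Gli genes were far more abundant than Gli1, and neither was called. Gli2, the main activator of the first hedgehog response, had 353 counts with Sparcl1 and 318 with PBS (log2 ratio 0.27, 0.05 to 0.49). Gli3, which mainly forms the repressor, had 1857 counts with Sparcl1 and 2110 with PBS (-0.07, -0.16 to 0.02). Per kilobase Gli3 exceeded Gli1 by 44-fold with Sparcl1 and by 183-fold with PBS, and Gli2 exceeded it by 11.7-fold with Sparcl1 and by 38.5-fold with PBS. Of the 21 listed genes of cilium and Gli control, 20 had at least 20 summed counts, and none was called. Their median log2 ratio was 0.01, beside 0.00 for all genes tested. Ift88, a ciliary transport gene, had the lowest ratio (-0.35, -0.55 to -0.14), and Prkar1a, a regulatory subunit of protein kinase A, was the most abundant by counts, at -0.01. Efcab7 had 0 counts in both libraries.

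Hedgehog co-receptors and genes of ligand release were mostly present. Of 16 listed, 14 had at least 20 summed counts, 1 was called lower and none higher, with a median log2 ratio of -0.12. The called gene, Gpc3, encodes a glypican that binds hedgehog and lowers its signal, and had 4 counts with Sparcl1 and 16 with PBS (-1.88, -3.92 to -0.25), the fewest summed counts the rule admits. Its ratio lies outside the central 95% of genes with 20 to 99 summed counts (-1.56 to 1.64), of which 6.25% were called lower. Gas1, a co-receptor that promotes hedgehog binding, was abundant, with 25203 counts with Sparcl1 and 29375 with PBS (-0.10). The co-receptor genes Cdon and Boc had ratios of -0.07 and -0.11, and Disp1, needed to release lipid-bearing ligand, -0.14. Scube1 had the next lowest ratio after Gpc3, with 67 counts with Sparcl1 and 109 with PBS (-0.58, -1.05 to -0.13). Scube2, which helps ligand release, had 1 count in each library.

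Other genes known to respond to hedgehog in some tissues were not called in either direction. Of 10 listed, 8 had at least 20 summed counts, and 6 of those 8 ratios lay above 0, with a median of 0.24. Ccnd1, the cyclin D1 gene that drives entry into the cell cycle, had 27736 counts with Sparcl1 and 24973 with PBS (0.27, 0.24 to 0.29). Nkx3-2, a chondrogenic repressor, had 229 counts with Sparcl1 and 206 with PBS (0.27, -0.01 to 0.55). Foxf1 and Foxf2, forkhead genes of hedgehog-responsive mesenchyme, stood at 0.25 (-0.08 to 0.59) and 0.23 (0.01 to 0.45). Bcl2, a survival gene, stood at -0.12 (-0.30 to 0.06) and Foxc1 at -0.06 (-0.12 to -0.01).

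Genes that carry the PTHrP receptor signal showed no call among 26 with at least 20 summed counts, of 29 listed. The median log2 ratio was -0.02, and the range was -0.30 to 0.33. Pde4b, a phosphodiesterase that breaks down cAMP, was highest (0.33, 0.15 to 0.52), with 522 counts with Sparcl1 and 450 with PBS. Mef2c, a driver of hypertrophy held back by class II histone deacetylases, was lowest (-0.30, -0.43 to -0.16), with 753 counts with Sparcl1 and 1002 with PBS. Zfp521, a zinc finger gene that acts downstream of PTHrP in growth plate chondrocytes, had 2904 counts with Sparcl1 and 3820 with PBS (-0.28, -0.35 to -0.21).

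Of 11 listed genes that respond to cAMP or PTHrP, 1 was called higher, none lower, and the median log2 ratio was 0.02. The called gene was Tnfsf11, which encodes RANKL, the osteoclast-forming factor that parathyroid hormone induces in osteoblast-lineage cells, with 42 counts with Sparcl1 and 21 with PBS (1.12, 0.33 to 1.95). That ratio lies inside the central 95% of genes with 20 to 99 summed counts (-1.56 to 1.64), of which 7.60% were called higher. The immediate cAMP targets were not called: Nr4a3 stood at 0.25, Fosb at 0.17, Nr4a2 at 0.02, Fos at -0.08, Nr4a1 at -0.14 and Crem at -0.24. Rgs2, a G protein regulator induced through the receptor, was lowest at -0.32 (-0.46 to -0.18), with 775 counts with Sparcl1 and 1049 with PBS. Ccnd1, Bcl2 and Nkx3-2 stand on this list and on the hedgehog target list.

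Markers of the growth plate zones were then set beside the signalling genes. Of 10 proliferating zone markers none was called, all 10 ratios lay below 0 and the median was -0.25. Acan, the aggrecan gene, stood at -0.50 and Fgfr3, a receptor that restrains chondrocyte proliferation, at -0.37. Acan, Col2a1, Sox9, Matn1, Matn3, Hapln1 and Cnmd of this list also stand on the chondrocyte marker list, whose median was -0.26. The 2 medians are thus not separate results. Prehypertrophic markers, a list that holds Ihh and Pth1r, had 8 of 10 genes with at least 20 summed counts, 1 called lower and a median of -0.22. The called gene, Dlx6, a homeobox gene of skeletal cells, had 12 counts with Sparcl1 and 36 with PBS (-1.47, -2.55 to -0.49). The Dlx6 ratio lies inside the central 95% of genes with 20 to 99 summed counts (-1.56 to 1.64), of which 6.25% were called lower. Runx2, the master factor of hypertrophy and bone, stood at -0.10 (-0.21 to 0.00), with 1361 counts with Sparcl1 and 1584 with PBS.

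Hypertrophic markers had ratios on both sides of 0, with a median of 0.00 over 7 genes and no call. Col10a1, the collagen of hypertrophic cells that the PTHrP loop delays, had 478 counts with Sparcl1 and 501 with PBS (0.05, -0.13 to 0.23). Panx3, a channel gene, was lowest at -0.68 and Spp1, the osteopontin gene, highest at 0.56. Of the 7 resting zone markers, which include Pthlh, 5 had at least 20 summed counts, none was called and the median was -0.04. Ucma, a secreted cartilage matrix protein gene, stood at -0.19, and Sfrp5 had 2 counts with Sparcl1 and 0 with PBS.

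**Figure D4:**
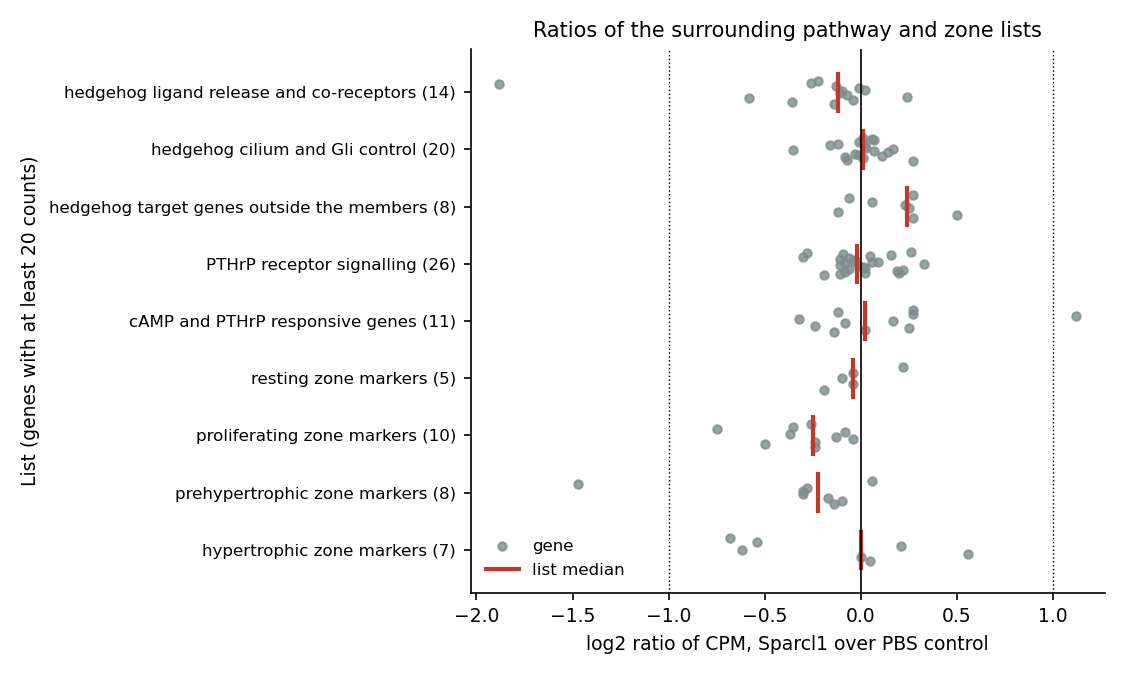
Log2 ratio of CPM, Sparcl1 over PBS, for each gene (grey) of 9 pathway and zone lists, with the list median in red; dotted lines mark a log2 ratio of 1 in size. Hedgehog targets outside the 9 genes have the highest median, 0.24, and proliferating zone markers the lowest, -0.25.

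Markers of several cell types had ratios mostly below 0. Over the 7 of 8 osteoblast markers with at least 20 summed counts the median was -0.54, and over the 6 smooth muscle and pericyte markers it was -0.47, with sums of 912 CPM with Sparcl1 and 1342 CPM with PBS. Acta2 held 529 CPM of that with Sparcl1 and 832 CPM with PBS. Myh11 had 14 counts with Sparcl1 and 16 with PBS (-0.08, -1.22 to 1.05). The 15 chondrocyte markers had a median of -0.26, and the 6 tendon and perichondrium markers -0.30, with sums of 1086 CPM with Sparcl1 and 1485 CPM with PBS. Postn held 839 CPM of that with Sparcl1 and 1196 CPM with PBS. Of those 6, Tnmd was called lower, with 48 counts with Sparcl1 and 105 with PBS (-1.01, -1.54 to -0.51). The rule called 0.946% of all genes tested lower. Scx and Mkx lay above 0, at 0.27 and 0.12, and the other 4 below 0. None of the 15 chondrocyte markers had 0 counts in either library. The part of any of these cells in the Smo, Ptch1 and Gli1 values was not tested. Macrophage markers had a median of 0.01 and Schwann and neural markers of -0.06. Endothelial, epithelial and skeletal muscle markers summed to 5.18, 3.31 and 0.993 CPM with Sparcl1 and to 7.76, 3.56 and 0.915 CPM with PBS. Endothelial markers had a median of -0.55 over 2 genes with at least 20 summed counts. Epithelial and skeletal muscle markers stood at -0.24 and -0.08, each on 1 such gene. Krt14, Krt8, Krt18, Myod1 and Ckm had 0 counts in both libraries.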

How the data were processed

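RNA from 2 libraries of primary mouse chondrocytes, Sparcl1 and PBS, was sequenced from NEBNext Ultra libraries on a NovaSeq instrument, per the labels' protocols. The authors deposited unnormalized counts of reads for each gene symbol, in a column for each library. The submitters' processing notes name HTSeq, STAR, Trimmomatic and FastQC, and build mm10. Versions, annotation, strand setting and the treatment of multiply mapped reads are not given in the sources used here. The library depths are given above.

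Counts were scaled with TMM factors from edgeR 4.0.16 in R 4.3.3, over the whole table. Ratios and intervals were computed in Python 3.11.15 with scipy 1.17.1, and figures with matplotlib 3.10.9. A 0 enters as 3 counts, and no ratio is given where both libraries have 3 or fewer. PCR duplicates without molecular identifiers are not independent, so intervals and limits cover counting error only. Exon lengths and positions come from GENCODE M21 (GRCm38), which matched 99.6% of symbols. The 26 symbols turned into dates stayed in the totals. The steps were tested on simulated counts with Poisson error only, without spread between cultures. Changes were planted only in genes with at least 100 summed counts. Recovery of changes at fewer reads, as for Gli1, was not tested.

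The genes, lists and rule were chosen with earlier results of these data known. From each pathway or zone list, names were drawn mainly from called genes, the 2 highest, the 2 lowest and the 3 most abundant. Not all of these are named. Other names were chosen after their values were seen. Most other list genes enter only the counts, sums and medians. As alternatives, size factors from DESeq2 1.42.0, total counts, upper-quartile factors, other filters and folds, a prior count of 2 and transcript lengths were tried.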

Additional observations from a re-analysis of the deposited data

How the results depend on the processing

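The 6 log2 ratios kept their direction and stayed inside their own counting intervals under total counts, DESeq2 size factors, upper-quartile factors and a prior count of 2, where Gli1 stood between 1.68 and 2.03. Gli1 was the called gene under each of the scalings, without a count filter, and at 1.5-fold or 3-fold. With at least 100 summed counts, 0 of the 9 genes were called, because Gli1 then falls under the filter, and 20 genes of the whole table were called higher and 38 lower. Without the filter 201 genes were higher and 183 lower. At 1.5-fold 309 were higher and 313 lower, and at 3-fold 44 were higher and 36 lower. Of the list medians, 4 changed sign: without the filter, epithelial markers stood at 0.73 and skeletal muscle markers at 0.52, and each of these lists had only 1 gene with at least 20 summed counts. The PTHrP receptor signalling median was 0.01 with total counts, and that of cAMP and PTHrP responsive genes -0.03 with at least 100 summed counts. With the longest transcript in place of the union of exons, the CPM per kilobase came to 9.67 with Sparcl1 and 10.7 with PBS for Pth1r, to 3.99 with Sparcl1 and 4.81 with PBS for Ptch1, and to 63.2 with Sparcl1 and 72.3 with PBS for Smo. No paired analysis was possible because there was 1 library per group, and no replicate could be left out. The 3 genes at 4 or fewer summed counts cannot show a difference at this depth.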
